A study of Mus musculus with 6 samples.

Results

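Neprilysin, encoded by Mme, and 6 other membrane peptidases were examined in livers of Pfn2-/- mice, which lack the actin-binding protein profilin 2, and of wild-type mice. The question was whether the low Mme signal of the Pfn2-/- livers was shared or balanced by other peptidases of the cell surface. The 7 genes, Mme, Mmel1, Ece1, Anpep, Enpep, Dpp4 and Ace, were 7 of the 22180 genes tested. Each was the sole row of the value table with that gene symbol. Mme was chosen by its low value in these same Pfn2-/- arrays, so its difference is given as a description without a test. The other 6 genes were chosen for their function, with earlier results of these data known. The series holds 6 Affymetrix arrays of total RNA from whole liver, 3 of Pfn2-/- and 3 of wild-type mice, all of strain C57BL/6, and each array is labelled as a separate biological replica. Replicates 1, 2 and 3 of each genotype were 9, 8.5 and 8 months old. The sources do not say how the Pfn2 allele was made. Values are RMA expression values on the log2 scale, and every difference below is Pfn2-/- minus wild type on that scale, with the standard error (SE) of a limma fit over all genes.

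Neprilysin is a zinc metallopeptidase anchored in the plasma membrane with its active site outside the cell. It cleaves short signalling peptides such as natriuretic peptides, bradykinin, substance P and enkephalins, and it also degrades amyloid beta. In human liver it lines the bile canaliculi, the channels between hepatocytes into which bile is secreted, and pathologists know it there as CD10. Membrane peptidases often share substrates, so that a peptide can be cleared by several of them.

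The array medians over all rows lay between 4.38 and 4.41 in Pfn2-/- livers and between 4.36 and 4.40 in wild-type livers. With 3 arrays a group, the precision of each comparison is limited by the number of arrays. Pfn2 itself, the targeted gene, lay at 3.88, 3.81 and 3.93 in Pfn2-/- livers and at 4.02, 3.85 and 4.09 in wild-type livers. All 6 values were below the median of their array, and no source places its probes in the transcript, so this row is no check of the genotype labels. Of the 12 hepatocyte markers listed, all 12 were measured and all had means above the median of all gene means, as the tissue label has it. In whole tissue, fewer cells of a type and less RNA per cell cannot be told apart.

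The sequences upstream of Mme are shown because it is the member with the large difference. That of Enpep is shown because both genes had their highest value in the same array, wild-type replicate 3. Dpp4 also had its highest value there, at 9.36 beside 9.33 in Pfn2-/- replicate 1, and its sequence is not printed. Each printed sequence is the 250 bases before a start site in RefSeq, build GRCm38.p6, and capitals mark the motifs found on either strand. The first Mme sequence lies at chr3:63294961-63295210 on the plus strand, the second, before a later start of the same gene, at chr3:63295622-63295871 on the plus strand, and that of Enpep at chr3:129332750-129332999 on the minus strand.
Mme, upstream start: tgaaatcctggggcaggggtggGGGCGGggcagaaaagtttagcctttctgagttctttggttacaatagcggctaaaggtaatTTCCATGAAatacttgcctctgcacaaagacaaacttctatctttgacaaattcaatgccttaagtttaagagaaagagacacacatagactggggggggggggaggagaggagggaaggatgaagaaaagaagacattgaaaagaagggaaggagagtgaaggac
Mme, later start: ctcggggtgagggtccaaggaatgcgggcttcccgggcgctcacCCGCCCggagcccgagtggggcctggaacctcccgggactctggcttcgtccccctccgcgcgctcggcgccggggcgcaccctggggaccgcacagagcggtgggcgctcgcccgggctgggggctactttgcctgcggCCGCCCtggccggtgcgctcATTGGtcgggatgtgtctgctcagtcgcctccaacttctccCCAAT
Enpep: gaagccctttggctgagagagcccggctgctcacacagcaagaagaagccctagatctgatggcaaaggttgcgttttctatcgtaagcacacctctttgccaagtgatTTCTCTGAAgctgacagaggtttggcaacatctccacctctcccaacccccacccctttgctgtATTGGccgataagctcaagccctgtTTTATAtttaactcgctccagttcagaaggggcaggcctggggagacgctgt
The motifs searched, on both strands, were the TATA box with the letters TATAAA, the CCAAT box, the GC box with the letters GGGCGG, the STAT site with the letters TTCNNNGAA, the E-box with the letters CACGTG, the palindromes of C/EBP and HNF1 and the direct repeat 1 of nuclear receptors. The sequence before the upstream Mme start held a GC box and a STAT site, had a GC content of 45.6% and held 2 CG pairs. That before the later start held the CCAAT box and the GC box at 2 places each, had a GC content of 73.2% and held 27 CG pairs. The Enpep sequence held a TATA box, a CCAAT box and a STAT site. The Dpp4 sequence held a TATA box and none of the other motifs. A RefSeq start of Mme that lies further downstream overlaps the second sequence and is not printed. All 7 genes had at least 1 start in the table. The STAT site letters were found before a start of Mme and of Enpep and of no other member. Of the 32851 start sites of all genes, 7.02% held them, while the GC box was in 32.7%, the CCAAT box in 33.8% and the TATA box in 12.4%. These shares count single start sites and are no measure for a count of genes, since Mme, Ece1 and Ace had more than 1 start. These matches are descriptions of the letters, and which start is used in these livers was not measured.

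Mme was much lower in each of the 3 Pfn2-/- livers than in any wild-type liver. Its values were 4.78, 6.33 and 5.32 in Pfn2-/- replicates 1, 2 and 3, against 8.37, 8.24 and 9.12 in wild-type replicates 1, 2 and 3. The groups did not overlap, and the highest Pfn2-/- value lay 1.91 below the lowest wild-type value. The mean was 5.48 ± 0.79 in Pfn2-/- livers and 8.58 ± 0.48 in wild-type livers (SD, n = 3 each), a difference of -3.10 (SE 0.36) or 8.57-fold lower. Compared within an age, the difference was -3.59 at 9 months, -1.91 at 8.5 months and -3.80 at 8 months. The Pfn2-/- livers also differed among themselves, over a range of 1.55, against 0.88 in wild-type livers. The SD within a genotype, 0.65, was larger than that of 99.3% of genes. All 3 Pfn2-/- values still lay above the median of their array. Of the 22180 genes, 0 had a larger negative difference than Mme.

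**Figure D1:**
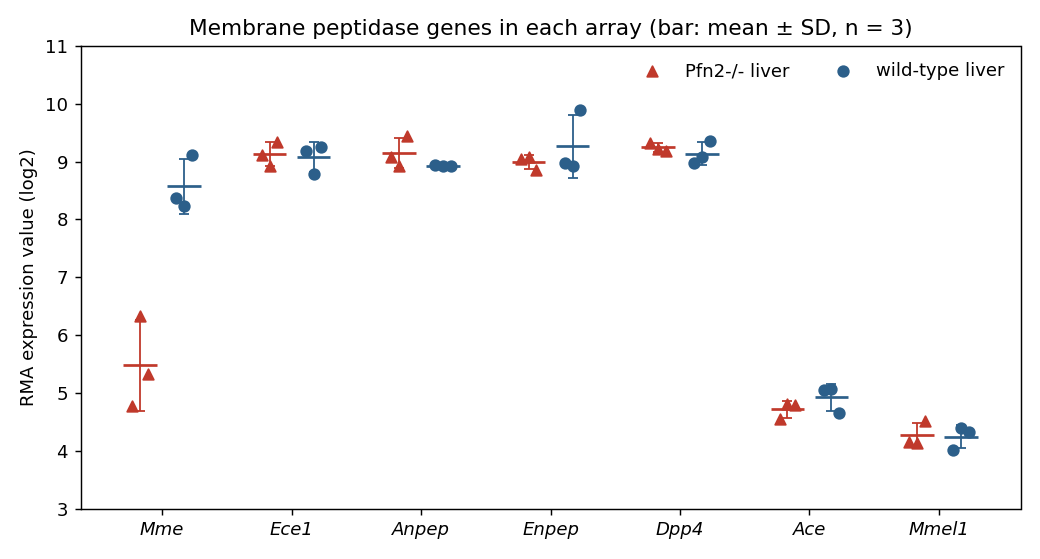
RMA expression value (log2, vertical axis) of the 7 peptidase genes in each array, with Pfn2-/- livers as triangles on the left and wild-type livers as circles on the right of each gene, and bars for the mean ± SD (n = 3). Mme is the gene whose groups are apart, at 4.78 to 6.33 in Pfn2-/- livers and 8.24 to 9.12 in wild-type livers; brightness is not to be compared between genes.

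None of the other 6 peptidase genes passed the test between the genotypes, and in all 6 the groups overlapped. Over all genes, 0 of 22180 passed a Benjamini-Hochberg adjusted p of 0.05 in limma (0%), and 1.19% had an unadjusted p under 0.01. The groups did not overlap in 9.85% of all genes. Of the 6 genes, 0 had an unadjusted p under 0.05, a level that 5.29% of all genes reached. The differences were positive for 4 and negative for 2, with a median of 0.04 beside 0 over all genes.

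Among the relatives of neprilysin, Ece1 encodes endothelin-converting enzyme, which makes active endothelin from its precursor. It lay at 9.11, 8.93 and 9.34 in Pfn2-/- livers and at 9.18, 8.78 and 9.26 in wild-type livers. The values of the genotypes were interleaved, and the difference was 0.05 (SE 0.16, 95% confidence interval -0.31 to 0.42, limma adjusted p = 0.994). Mmel1 encodes the closest relative of neprilysin, a peptidase known in mice mainly from testis. It lay at 4.16, 4.13 and 4.51 in Pfn2-/- livers and at 4.02, 4.40 and 4.32 in wild-type livers. The row was dim, below the array median in 4 of the 6 arrays, and its difference was 0.02 (SE 0.15, 95% confidence interval -0.33 to 0.37, limma adjusted p = 0.997). Both signs turned when single arrays were left out, from -0.09 to 0.15 for Ece1 and from -0.10 to 0.10 for Mmel1.

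Of the aminopeptidase genes, Anpep had a positive and Enpep a negative difference, and neither passed. Anpep encodes aminopeptidase N, which trims peptides from their amino end and is known, like neprilysin, from the canalicular membrane. It lay at 9.08, 8.93 and 9.44 in Pfn2-/- livers and at 8.94, 8.93 and 8.92 in wild-type livers. The wild-type values were nearly identical, and Pfn2-/- replicate 3 was the highest. The difference was 0.22 (SE 0.15, 95% confidence interval -0.11 to 0.55, limma adjusted p = 0.954). Enpep encodes aminopeptidase A, which removes the first residue of angiotensin II. It lay at 9.05, 9.08 and 8.85 in Pfn2-/- livers and at 8.98, 8.92 and 9.89 in wild-type livers. Wild-type replicate 3 stood far above the other 5 arrays, and it was also the array with the highest Mme. The difference was -0.27 (SE 0.23, 95% confidence interval -0.79 to 0.25, limma adjusted p = 0.958), and it was 0.04 without wild-type replicate 3.

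Dpp4 and Ace, which act in hormone and blood pressure control, did not pass either. Dpp4 encodes dipeptidyl peptidase 4, a serine peptidase of the cell surface that inactivates incretin hormones. It lay at 9.33, 9.22 and 9.19 in Pfn2-/- livers and at 8.98, 9.08 and 9.36 in wild-type livers. The lowest value was that of wild-type replicate 1 and the highest that of wild-type replicate 3. The difference was 0.11 (SE 0.14, 95% confidence interval -0.20 to 0.41, limma adjusted p = 0.973). Ace encodes angiotensin-converting enzyme, which makes angiotensin II and, like neprilysin, cleaves bradykinin. It lay at 4.55, 4.81 and 4.79 in Pfn2-/- livers and at 5.05, 5.07 and 4.65 in wild-type livers. Wild-type replicates 1 and 2 were the highest and wild-type replicate 3 lay within the Pfn2-/- range. The difference was -0.21 (SE 0.15, 95% confidence interval -0.54 to 0.13, limma adjusted p = 0.956).

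**Figure D2:**
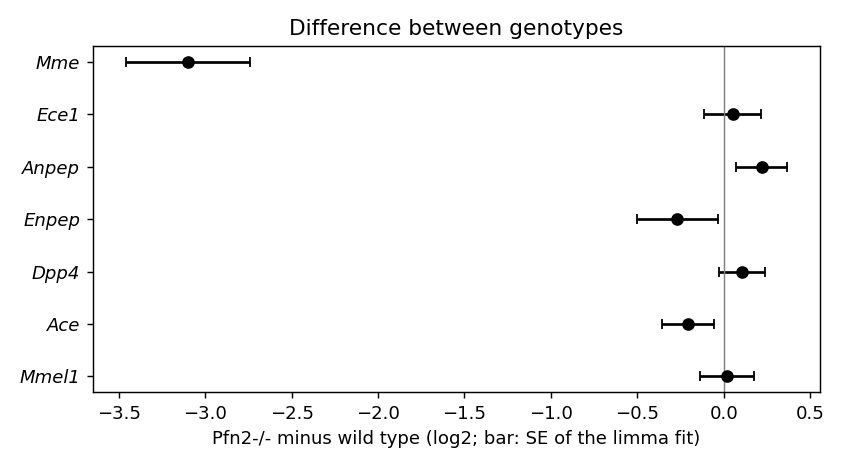
Difference between Pfn2-/- and wild-type livers (log2, horizontal axis) for the 7 genes, with bars for the SE of the limma fit. Mme lies at -3.10 and the other 6 genes between -0.27 and 0.22.

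The confidence intervals of the other 6 genes, taken singly, reached down to -0.79, for Enpep, and up to 0.55, for Anpep, which is 1.73-fold lower and 1.46-fold higher on the scale of the RMA values. For the dim row of Mmel1 the interval is no bound on its RNA, since a drop could hardly show there. Ace, at a mean of 4.82 over the arrays, lay near the median of all gene means, 4.72, and a drop could be muted there too. When each of the 6 genes was centred on its own mean over the arrays, their average was -0.04, -0.07 and 0.10 in Pfn2-/- replicates 1, 2 and 3 and -0.06, -0.06 and 0.14 in wild-type replicates 1, 2 and 3. Mme on the same scale was -2.25, -0.70 and -1.71 in Pfn2-/- livers and 1.34, 1.21 and 2.09 in wild-type livers. Replicate 3 had the highest average of the 6 genes in either genotype. Pfn2-/- replicate 1, with the lowest Mme, had 3 of the 6 genes above their own mean, and wild-type replicate 3, with the highest Mme, had 4. Whether protein or enzyme activity of these peptidases differed was not measured.

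**Figure D3:**
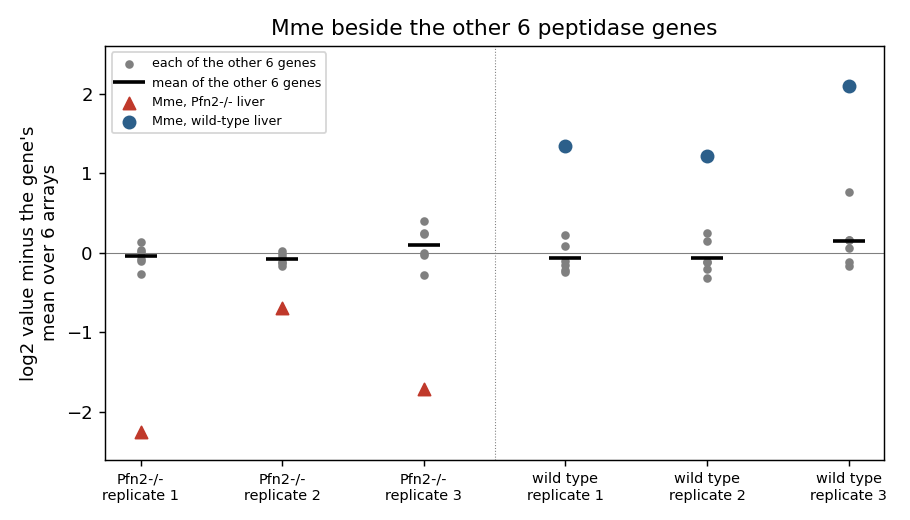
Log2 value minus the gene's mean over the 6 arrays (vertical axis) for Mme (triangles in Pfn2-/- livers, circles in wild-type livers), each of the other 6 peptidase genes (grey points) and their average (black bars), by array. The average of the 6 genes stays between -0.07 and 0.14 while Mme spans -2.25 to 2.09, and the highest grey point is Enpep in wild-type replicate 3.

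Wider families of peptidases showed no gene that passed over all genes. Of the 6 measured relatives of neprilysin other than Mme, Ece2, which also cleaves the endothelin precursor, had the smallest p. It lay at 4.72, 4.74 and 4.55 in Pfn2-/- livers and at 4.91, 4.97 and 5.12 in wild-type livers. The groups did not overlap, with a difference of -0.33 (SE 0.12, limma adjusted p = 0.915). Phex, known for phosphate balance in bone, differed by 0.17 (SE 0.14). Of 10 measured aminopeptidases of the family of Anpep and Enpep, 0 had an unadjusted p under 0.01, and the median was 0.06, with 8 positive and 2 negative differences. Trhde, which encodes the enzyme that degrades thyrotropin-releasing hormone, had the smallest p, with a difference of 0.49 (SE 0.26, limma adjusted p = 0.943). Of 9 genes listed as Dpp4 and its relatives, 0 had an unadjusted p under 0.01, Dpp4 and Dpp10 having the smallest p. The median over the 9 genes was 0.04, with 8 positive and 1 negative difference, none above 0.11. Averaged over the 9 genes, the log2 values were 6.123 to 6.136 in Pfn2-/- livers and 6.050 to 6.117 in wild-type livers, narrowly without overlap. No single gene of the 9 had groups apart, beside 9.85% of all genes, and 3 of the 9 lay below the median of all gene means. The log2 of the summed linear values of the 9 overlapped, at 10.49 to 10.53 in Pfn2-/- livers and 10.39 to 10.50 in wild-type livers.

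Among 22 other measured peptidases of the cell surface, 1 had an unadjusted p under 0.01 and was lower in Pfn2-/- livers, as 0.586% of all genes were. It was Cpm, which encodes carboxypeptidase M, an enzyme that trims peptides such as bradykinin from their carboxyl end. Cpm lay at 4.17, 4.84 and 4.60 in Pfn2-/- livers and at 5.26, 5.28 and 5.05 in wild-type livers. The groups did not overlap and the difference was -0.66 (SE 0.17, limma adjusted p = 0.746). Its unadjusted p was not under 0.01 without wild-type replicate 1 or 2 or without Pfn2-/- replicate 1. Folh1, a carboxypeptidase of folate and neuropeptides, differed by -0.37 (SE 0.15). The median over the 22 genes was -0.07, with 7 positive and 15 negative. Among 10 intracellular peptidases, most of them metallopeptidases, 0 had an unadjusted p under 0.01, the smallest being those of Xpnpep1 (-0.26, SE 0.14) and Lap3 (0.21, SE 0.12). Ide, the insulin-degrading enzyme, which like neprilysin degrades amyloid beta, differed by 0.13 (SE 0.12). The summed linear values of these 10 genes had a log2 of 12.03 to 12.05 in Pfn2-/- livers and 11.90 to 12.00 in wild-type livers, without overlap. Their average log2 value overlapped, at 7.91 to 8.04 in Pfn2-/- livers and 7.87 to 8.03 in wild-type livers. Of all single genes, 9.85% had groups that did not overlap.

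The peptides that neprilysin cleaves, and their receptors, had 0 genes at an unadjusted p under 0.01 in each of the lists examined. In the natriuretic peptide system, Npr2, the receptor of C-type natriuretic peptide, differed by 0.36 (SE 0.22) and Nppa, which encodes the atrial peptide, by 0.25 (SE 0.15), with a median of -0.01 over 8 genes. Of 4 measured endothelin genes, the receptor gene Ednrb differed by -0.18 (SE 0.12) and the ligand gene Edn1 by -0.22 (SE 0.28). Of 10 kinin and tachykinin genes, the tachykinin genes Tac4 and Tac2 differed by 0.23 (SE 0.13) and 0.15 (SE 0.15). Of 10 genes of the renin-angiotensin system, Anpep had the smallest p, followed by the receptor gene Agtr2 (0.19, SE 0.13), and Agt, the angiotensinogen gene, differed by -0.19 (SE 0.14). Of 23 genes of other peptide ligands and receptors, Pomc, the precursor of several peptide hormones, differed by 0.28 (SE 0.11) and Npy, which encodes neuropeptide Y, by 0.30 (SE 0.15), and the median was -0.05.

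Of 19 measured genes of the canalicular membrane, where neprilysin is known to sit, 0 were lower at an unadjusted p under 0.01. The differences were positive for 11 and negative for 8, with a median of 0.04. The log2 of their summed linear values was 13.545 to 13.607 in Pfn2-/- livers and 13.416 to 13.540 in wild-type livers, narrowly without overlap. Their average log2 value overlapped, at 8.246 to 8.323 in Pfn2-/- livers and 8.21 to 8.25 in wild-type livers. Cldn1, which encodes a claudin of the tight junction that seals the canaliculus, lay at 8.56, 9.08 and 8.55 in Pfn2-/- livers and at 8.35, 7.76 and 8.14 in wild-type livers. The groups did not overlap, and its difference of 0.65 (SE 0.19) had an unadjusted p of 0.00756 and a limma adjusted p of 0.791. It was the sole gene of the list at an unadjusted p under 0.01, where 0.609% of all genes were higher at that level, and 3 of the 19 genes (15.8%) were higher with groups that did not overlap, beside 5.09% of all genes. The other 2 were Rdx, which encodes radixin, a linker of the membrane to actin (0.27, SE 0.13), and Abcb4, the phospholipid exporter (0.22, SE 0.13). The unadjusted p of Cldn1 was not under 0.01 without wild-type replicate 2 or 3, without Pfn2-/- replicate 1 or 2, or under 4 of the other settings listed in the closing section. Abcg2, an exporter of the canaliculus, differed by 0.59 (SE 0.24, limma adjusted p = 0.915). The sterol exporter gene Abcg5 had the largest negative difference of the list (-0.39, SE 0.20, limma adjusted p = 0.942). Rdx, Abcb4 and Abcg5 were chosen after their values were seen.

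Markers of other cells and tissues in which Mme is known to be strong were compared on the log2 of their summed linear values. The 8 measured B cell markers, of interest because neprilysin marks early B cells in humans, summed to 7.12 to 7.21 in Pfn2-/- livers and 7.15 to 7.33 in wild-type livers. All 8 lay below the median of all gene means. The 11 measured kidney markers, the kidney being rich in neprilysin, summed to 7.64 to 7.78 in Pfn2-/- livers and 7.64 to 7.77 in wild-type livers, and 9 of them lay below that median. The 10 neutrophil markers summed to 7.33 to 7.5 in Pfn2-/- livers and 7.32 to 7.38 in wild-type livers, and 9 of them lay below that median. Of these 3 lists, 0 members had an unadjusted p under 0.01. The smallest p were those of Cd79a and Igll1 among B cell genes, Slc12a1 and Nphs1 among kidney genes, and Retnlg and S100a8 among neutrophil genes.

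Stellate cell and fibroblast markers were the sole marker list of the 11 whose average separated the genotypes. The average log2 value of the 11 genes was 6.29 to 6.30 in Pfn2-/- livers and 6.31 to 6.52 in wild-type livers, narrowly without overlap, with 8 negative and 3 positive differences and a median of -0.10. Col3a1, a fibrillar collagen gene, differed by -0.30 (SE 0.13) without overlap, and Pdgfrb, a growth factor receptor gene of these cells, by -0.28 (SE 0.13), with 0 of the 11 at an unadjusted p under 0.01. Their summed level, led by Dcn, overlapped, at 10.94 to 11.10 in Pfn2-/- livers and 10.92 to 11.18 in wild-type livers. Their part in the Mme difference was not tested.

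In 2 of the 11 marker lists the summed level separated the genotypes while the average log2 value did not. Since 9.85% of all single genes also had groups that did not overlap, this count is not read as a result about cell types. The 8 measured cholangiocyte markers summed to 7.90 to 8.06 in Pfn2-/- livers and 7.64 to 7.81 in wild-type livers, a sum led by Sox9, and averaged 4.36 to 4.47 in Pfn2-/- livers and 4.24 to 4.38 in wild-type livers. Sox9, a transcription factor of bile duct cells, differed by 0.58 (SE 0.20, limma adjusted p = 0.895), and Cftr, a chloride channel, by 0.33 (SE 0.13, limma adjusted p = 0.917). The other 6 lay between -0.20 for Prom1 and 0.17 for Muc1, both chosen after their values were seen, the median of the list was 0.03, and 0 had an unadjusted p under 0.01. The 7 measured adipocyte markers summed to 12.53 to 12.69 in Pfn2-/- livers and 12.18 to 12.46 in wild-type livers, a sum led by Car3, which liver also expresses, and averaged 5.61 to 5.92 in Pfn2-/- livers and 5.60 to 5.81 in wild-type livers. The part of these 2 lists in the Mme difference was not tested either. Both the summed and the average levels of hepatocyte, endothelial, Kupffer cell, T and NK cell and pancreas markers overlapped between the genotypes. The smallest p in these lists were those of Tat and Apoa1, Oit3 and Pecam1, C1qa and Clec4f, Il2rb and Gzma, and Prss2 and Zg16, and among adipocyte genes those of Car3 and Cidec, none of them under 0.01.

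Mme lies on chromosome 3, as does Pfn2, with 31 tested genes between them in the gene order of GRCm38.p6. These 31 genes and the nearest 10 beyond Mme were examined because of that position. Of the 41 genes, 1 had an unadjusted p under 0.01 (2.44%, beside 1.19% of all genes), and 0 passed over all genes. The median difference was 0.02, with values from -0.49 to 0.30. P2ry1, a receptor for extracellular nucleotides, is the fifth tested gene from Mme towards Pfn2. It lay at 6.01, 6.33 and 6.17 in Pfn2-/- livers and at 6.62, 6.81 and 6.55 in wild-type livers. The groups did not overlap and the difference was -0.49 (SE 0.13, unadjusted p = 0.00481, limma adjusted p = 0.788). That unadjusted p was not under 0.01 without wild-type replicate 1 or 2 or without Pfn2-/- replicate 1 or 3.

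Aadac, an arylacetamide deacetylase of hepatocytes, 8 tested genes from Mme on the same side, lay at 9.32, 9.44 and 9.06 in Pfn2-/- livers and at 9.64, 9.68 and 9.64 in wild-type livers. Its difference was -0.38 (SE 0.13, limma adjusted p = 0.895). These 2 genes were the ones among the 41 whose groups did not overlap, and both were lower in Pfn2-/- livers. They make up 4.88% of the 41, near the 4.76% of all genes that were lower without overlap. Next in order of p came E130311K13Rik, beyond Mme, with 0.30 (SE 0.15). The genes next to Mme on either side, Gpr149 and Plch1, chosen for their place, differed by -0.03 (SE 0.16) and 0.14 (SE 0.13). Both rows were dim, below the array median in every array. A drop could hardly show there, so these values do not tell whether the RNA of the nearest genes was lower.

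**Figure D4:**
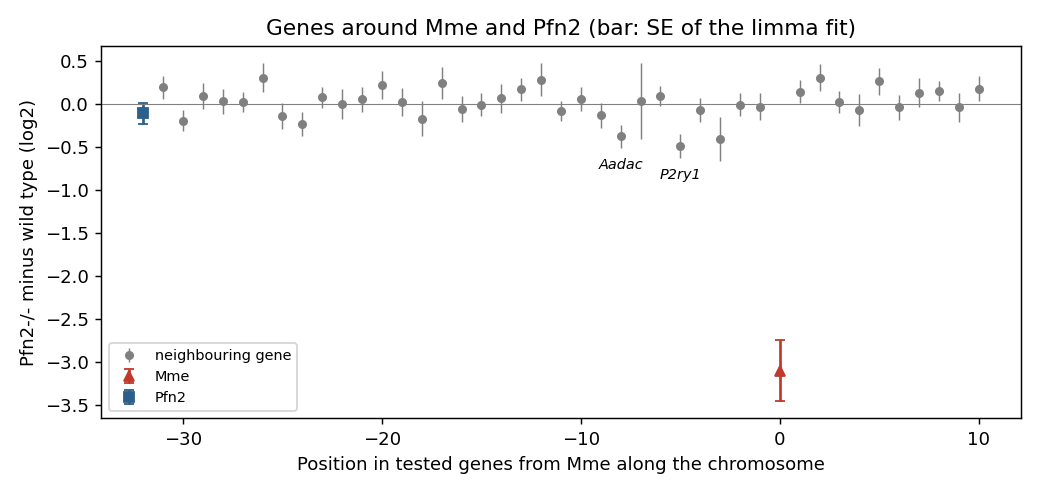
Difference between Pfn2-/- and wild-type livers (log2, vertical axis; bars for the SE of the limma fit) against position along the chromosome, counted in tested genes from Mme. Mme lies at -3.10, and the 41 genes around it between -0.49 for P2ry1 and 0.30.

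The genes whose values over the 6 arrays were most like those of Mme were Nipal1, Slc16a5, Lepr, Igfbp1, Acot3 and Lpin1. Likeness was the root mean square difference between the log2 values, each gene centred on its own mean. It was 0.80 for Nipal1, 0.81 for Slc16a5, 0.84 for Lepr, 0.85 for Igfbp1, 0.95 for Acot3 and 1.02 for Lpin1, where a gene with no variation would have 1.64. The other 6 peptidase genes lay between 1.48 for Enpep and 1.77 for Anpep. Because the measure rewards a large gap between the genotypes, their differences are not separate evidence of it.

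Within wild type these genes parted from Mme. Mme was highest in wild-type replicate 3, whereas Nipal1 (7.72, 7.95 and 6.40 in wild-type replicates 1, 2 and 3), Slc16a5 (9.30, 9.02 and 8.25) and Lepr (6.45, 6.77 and 5.74) were lowest there among wild-type livers. Igfbp1 and Lpin1 were lowest there as well, and Acot3 lay between the other wild-type livers. Within Pfn2-/- livers, Mme was highest in replicate 2, at 6.33, and so were Nipal1 at 5.66, Slc16a5 at 7.10, Lepr at 4.94 and Igfbp1 at 7.18. Acot3 and Lpin1 were highest in Pfn2-/- replicate 3, at 5.50 and 9.56. When 1 array at a time was left out, between 3 and 6 of the 6 genes stayed among the 6 most like Mme, the fewest without Pfn2-/- replicate 1.

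**Figure D5:**
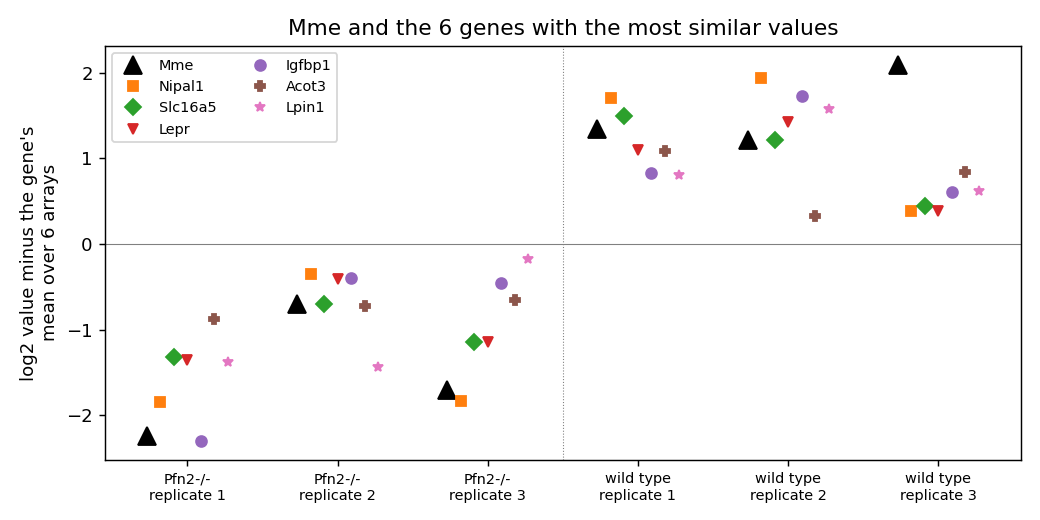
Log2 value minus the gene's mean over the 6 arrays (vertical axis) for Mme (black triangles) and the 6 genes with the smallest root mean square difference from it, by array. In wild-type replicate 3 Mme is the highest point, at 2.09, above all 6 genes.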

How the data were processed

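Trizol-extracted RNA of frozen livers was labelled with the GeneChip WT PLUS kit, per the labels' protocols. The submitters' processing notes name RMA and limma, and the values as deposited are on the log2 scale. RMA shrinks the differences of dim rows. Probe positions and the build behind the rows are not given here. Arrays give no read depth. The p-values, SE and intervals rest on the spread between these 6 animals, moderated by limma towards that of all genes. Of the 9.71 degrees of freedom, 5.71 come from that moderation. For genes of large spread, such as Mme and Enpep, it makes the SE smaller than their own spread would give.

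Rows were named from the platform annotation. Of 34390 rows, 23521 had 1 symbol, 1814 several and 9055 none listed here. The row with the highest mean was kept for each of 22180 genes. limma 3.58.1 in R 4.3.3 (lmFit and eBayes, two-sided, genotype as the sole term, total degrees of freedom 9.71) gave p-values, adjusted over all genes by Benjamini-Hochberg. The fit was tested on simulated data. Of 251 list symbols 235 were matched, 1 through a synonym (Slc9a3r1). Members, the 22 lists and tests were chosen with earlier results of these data known. Named were the members, list genes at an unadjusted p under 0.01, the 2 of smallest p in each list, 3 of the neighbouring genes and 6 most like Mme. Names outside this rule are said to be chosen otherwise, and Ide and Agt, too, were chosen after their values were seen. Start site sequences came from RefSeq, GRCm38.p6, and protein sequences were not used here. Alternatives were median centring, quantile normalization again, filters at the lower quartile and the median of gene means, another row or the mean of a gene's rows, robust eBayes or eBayes with trend, weights for the arrays, a replicate block, and leaving out each array in turn.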

Additional observations from a re-analysis of the deposited data

How the results depend on the processing

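Mme kept its direction in all 16 alternatives, at -3.17 to -3.09 in 10 of them and at -3.53 to -2.75 when an array was left out. The other 6 members passed the adjusted threshold in 0 of 95 values, with a smallest adjusted p of 0.694. Mmel1 was too dim for the filter at the median and gave no value there. Leaving out arrays gave -0.0933 to 0.152 for Ece1, -0.102 to 0.0967 for Mmel1, -0.442 to 0.0433 for Enpep, 0.08 to 0.33 for Anpep, 0.03 to 0.22 for Dpp4 and -0.34 to -0.12 for Ace. The median of the 6 was -0.0775 (without Pfn2-/- replicate 3) to 0.104. Genes past the adjusted threshold numbered 0 in the main comparison, 2 with array weights and 0 to 6 without single arrays (6 without wild-type replicate 3). Those at an unadjusted p under 0.01 numbered 265, with 399 under array weights, 155 with the filter at the median, which tests fewer genes, and 148 to 421 without single arrays (148, 168 and 421 without wild-type replicates 2, 1 and 3, and 175 without Pfn2-/- replicate 1). Of the 41 genes around Mme, 1 had such a p, 2 with eBayes trend and 0 to 2 without single arrays. Of 234 list genes other than Mme, 2 had such a p, 1 with quantile normalization again and 1 with the filter at the median (Cpm in both), and 0 to 7 without single arrays (0 without wild-type replicate 2 or Pfn2-/- replicate 1, 7 without wild-type replicate 3). Cldn1 also lost it with array weights and the replicate block. The median of 12 of the 22 lists turned sign in at least 1 alternative. The cause of the other changes was not tested.

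Replicate numbers are shared between genotypes, with equal ages. Deviations from the group means in same-numbered arrays correlated across genes at -0.082, 0.155 and 0.020 for numbers 1, 2 and 3. Those of differently numbered arrays ran from -0.171 to 0.181. The numbers were not taken as pairs, although 3 arrays a group cannot exclude an effect of age. With the replicate block 7 genes passed the adjusted threshold, none of them among the other 6 members, and 4 list genes (Trhde, Cpm, Abcg2 and Sox9) had an unadjusted p under 0.01.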
